A study of Oryctolagus cuniculus with 18 samples.

Results

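The matrix-degrading enzymes MMP1, MMP2, MMP3, MMP9 and cathepsin K (CTSK) and the inhibitor TIMP1 were examined in the aorta of healthy and atherosclerotic rabbits. They are 6 of the 84 genes of interest on a rabbit wound healing PCR array and were selected by their symbols. All 6 were found among the 89 assays of the array, which also holds 5 reference genes. RNA came from the lower abdominal aorta, just above the iliac bifurcation, of 18 male New Zealand White (NZW) rabbits that were 11 weeks old when they were randomized. Further rabbits of the study were not analysed here. The control group (n = 9) received normal chow and is labelled healthy. The atherosclerotic group (n = 9) received a high cholesterol diet and underwent 2 surgeries in which a balloon catheter denuded the abdominal and thoracic aorta. By the labels the diet held 0.30% cholesterol for 8 weeks after surgery and 0.15% for the remaining 12 weeks, whereas the study's methods place the start of the diet before the first surgery. No sham operation of the control rabbits is described, so the effects of diet and of injury cannot be told apart. Each sample is a separate rabbit, with 1 well per gene, and no plate or batch is named in the labels.

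Matrix metalloproteinases are secreted or membrane-bound zinc enzymes, made as inactive proenzymes, that cut collagen and other proteins of the extracellular matrix. MMP1 is an interstitial collagenase, MMP3 (stromelysin 1) cuts many matrix proteins and can activate other proMMPs, MMP2 and MMP9 are the gelatinases, and CTSK is a cysteine protease of lysosomes that degrades collagen and elastin. TIMP1 binds active metalloproteinases and blocks them, but does not inhibit cysteine proteases such as CTSK. In atherosclerotic plaques these enzymes are made by macrophages and smooth muscle cells and are known for weakening the fibrous cap.

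Expression was read by quantitative PCR as the threshold cycle (Ct), the cycle at which a well's signal crosses the detection threshold, so a lower Ct means more transcript. The deposited value is the ratio of each gene to the mean level of LDHA, ACTA2, GAPDH, LOC100346936 and ACTB, the reference genes, in the same rabbit, where 1 unit of its log2 is a doubling. A well at Ct 35 or later, or without a Ct after 40 cycles, was entered as 35 in the deposited ratio and gives only an upper limit. The reference level lay between 22.00 and 24.53 cycles in the control group and between 19.79 and 23.65 cycles in the atherosclerotic group. Control rabbit 3 had the latest level, which makes its upper limits the highest, and atherosclerotic rabbit 20 stood apart with the earliest. Single reference genes were not equal in both groups. Against the mean Ct of the other 4, ACTA2 differed by -3.79 (exact permutation p = 8.2e-05) and LDHA by 3.01 (exact permutation p = 4.1e-05) on the log2 scale in the atherosclerotic group. The difference was 1.24 for GAPDH (exact permutation p = 4.1e-05), -0.62 for ACTB (exact permutation p = 0.011) and 0.17 for LOC100346936 (p = 0.42 in the same exact test). The groups overlapped for ACTA2, ACTB and LOC100346936, for ACTA2 through atherosclerotic rabbit 20. In tissue RNA of this kind, a change in the number of cells of a type cannot be told apart from a change in RNA per cell.

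All 6 genes were expressed at higher levels in the atherosclerotic group than in the control group at an adjusted p under 0.05 (limma, Benjamini-Hochberg adjustment over the 84 genes). On the array as a whole, 32 of 84 genes were called higher in the atherosclerotic group (38.1%) and 19 lower (22.6%), which makes 60.7% in either direction. For MMP2, MMP9, TIMP1 and CTSK no atherosclerotic rabbit overlapped with any control rabbit, a separation that 13.1% of all genes showed in this direction and 22.6% in either. The median log2 fold change was 2.58 over the 6 genes and 0.37 over the 84. By size of the log2 fold change, with limits at their deposited value, MMP1 ranked 3, MMP9 5, CTSK 15, TIMP1 18, MMP3 21 and MMP2 29 of 84. Wells at or above the ceiling were unevenly divided, with 24 of 54 wells of the 6 genes in the control group and 1 of 54 in the atherosclerotic group.

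MMP1, the collagenase, was not measurable below Ct 35 in any control rabbit. Of its control wells, 5 gave a Ct between 36.99 and 39.24 and 4 gave none, so the control ratios are upper limits, from 0.000122 to 0.000707 and 0.000179 at the median. Among atherosclerotic rabbits the Ct lay between 25.70 and 33.71, and the ratio ranged from 0.000497 in rabbit 8 over a median of 0.00675 to 0.0279 in rabbit 10. The values of 8 of the 9 atherosclerotic rabbits lay above every control limit. Rabbit 8 overlapped only with the limit of control rabbit 3, whose well crossed at Ct 38.76 against 33.71 in rabbit 8. The difference was at least 30.9-fold (log2 fold change 4.95, SE 0.64, limma adjusted p = 1.25e-06, exact permutation p = 8.2e-05). Leaving out single rabbits gave bounds between 25.6-fold, without atherosclerotic rabbit 10, and 42.3-fold, without atherosclerotic rabbit 8.

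MMP3, the stromelysin, had the lowest ratios of the 6 genes in the atherosclerotic group. The control wells were all at the ceiling, 4 with a Ct between 35.20 and 38.31 and 5 without a Ct, and therefore share the limits given for MMP1. The atherosclerotic ratios ranged from 0.000203, a limit in rabbit 8, over a median of 0.00103 to 0.00313 in rabbit 20. Rabbits 4, 6, 10, 18 and 20 lay above every control limit and the other 4 overlapped with the control limits. Their Ct values, between 28.11 and 36.01, were below 35 in 8 of 9 rabbits. The median was at least 5.73-fold higher in the atherosclerotic group, and the limma log2 fold change was 2.25 (SE 0.51, adjusted p = 0.000688, exact permutation p = 0.0011). Since rabbit 8 is a limit as well, this mean difference is no bound.

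MMP2, the gelatinase that resident cells of the vessel wall make without stimulation, was readily measured in both groups. Its ratio ranged from 0.0771 over a median of 0.105 to 0.149 in the control group and from 0.199 in rabbit 20 over a median of 0.375 to 0.644 in rabbit 4 in the atherosclerotic group. The groups did not overlap. The mean ratio was 0.105 ± 0.0262 (SD, n = 9) and 0.385 ± 0.140 (SD, n = 9). The increase, taken like every fold between the groups, other than that of a median, from the means of the log2 ratios, was 3.56-fold (log2 fold change 1.83, 95% confidence interval 1.34 to 2.32, SE 0.23, limma adjusted p = 1.18e-06). It was the smallest estimate of the 6, but its order against MMP3, whose estimate rests on limits, is not settled.

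MMP9, the gelatinase of inflammatory cells, was close to the detection limit in control aortas. Only control rabbits 1, 15 and 21 had a Ct below 35, with ratios of 0.000541, 0.000130 and 0.000395, and the other 6 gave limits of up to 0.000707. The atherosclerotic ratio ranged from 0.00122 in rabbit 8 over a median of 0.00456 to 0.0142 in rabbit 2. The lowest atherosclerotic value thus lay above every control value and limit. The increase was at least 18.3-fold (log2 fold change 4.19, SE 0.48, limma adjusted p = 2.66e-07, exact permutation p = 4.1e-05, the smallest that 9 against 9 rabbits allow).

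CTSK had the highest ratio of the 6 genes in every one of the 18 rabbits. Its control ratio ranged from 0.454 over a median of 0.699 to 0.991, and its atherosclerotic ratio from 3.14 in rabbit 12 over a median of 5.08 to 6.99 in rabbit 4. The groups were separated by a gap and each was narrow, spanning 2.18-fold in the control group and 2.23-fold in the atherosclerotic group. The increase was 6.73-fold (log2 fold change 2.75, 95% confidence interval 2.33 to 3.17, SE 0.20, limma adjusted p = 7.39e-10).

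TIMP1, the inhibitor, rose as well. The control ratio ranged from 0.163 over a median of 0.203 to 0.299, and the atherosclerotic ratio from 0.638 in rabbit 20 over a median of 1.07 to 2.23 in rabbit 4. All atherosclerotic rabbits lay above all control rabbits. The mean was 0.216 ± 0.0511 (SD, n = 9) against 1.18 ± 0.470 (SD, n = 9). The increase between the means of the log2 ratios was 5.28-fold (log2 fold change 2.40, 95% confidence interval 1.92 to 2.88, SE 0.23, limma adjusted p = 2.54e-08). Across genes the ratios are only roughly comparable, because the efficiency of each assay is unknown, but in every rabbit TIMP1 lay below CTSK and above MMP2.

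**Figure D1:**
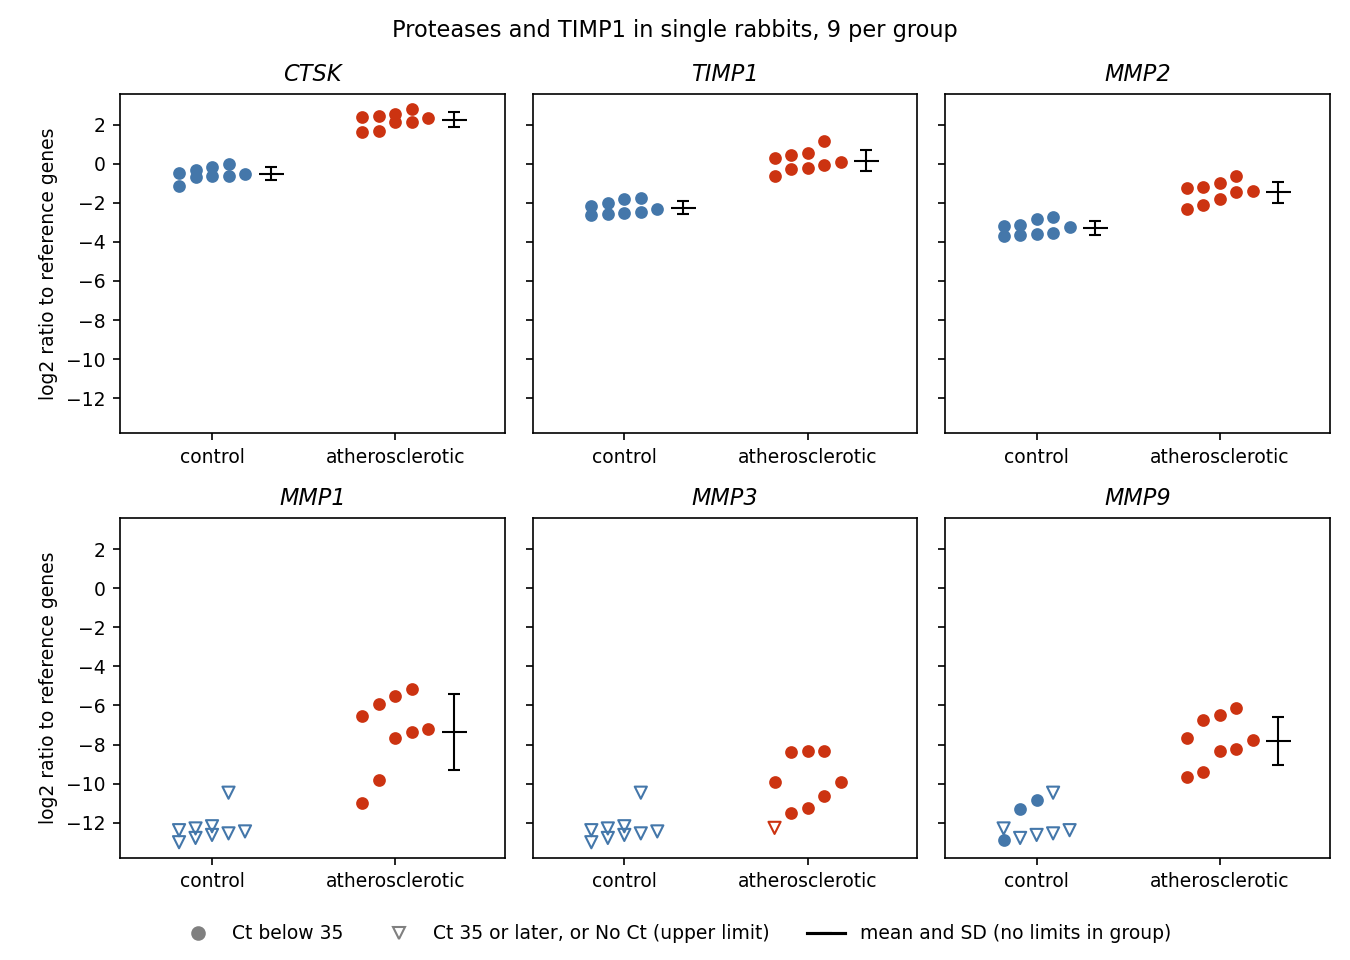
Log2 of the ratio to the reference genes for each rabbit, 9 control and 9 atherosclerotic, with all panels on the same scale. Filled points are wells below Ct 35, open triangles are upper limits, and bars give the mean and SD where a group holds no limit. CTSK, TIMP1 and MMP2 form separate narrow groups, whereas the control values of MMP1 and MMP3 are all limits.

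The size of each increase depended on which reference genes were used. Of 8 other reference levels compared, the one without ACTA2 gave the lowest folds and the one without LDHA the highest. CTSK ranged from 3.80-fold to 9.86-fold, TIMP1 from 2.98-fold to 7.73-fold and MMP2 from 2.01-fold to 5.22-fold. The bounds ranged from at least 17.4-fold to at least 45.3-fold for MMP1 and from at least 10.3-fold to at least 26.8-fold for MMP9. For MMP3 the fold of the limma difference was between 2.68 and 6.96. On each of these levels all 6 genes remained higher in the atherosclerotic group and were called in limma, the highest adjusted p being 0.0232 for MMP3 without ACTA2. Over all genes the split of 32 higher and 19 lower became 22 and 34 without ACTA2, with the median log2 fold change moving by -0.82, and 47 and 10 without LDHA, with a move of 0.55. Without atherosclerotic rabbit 20 all 6 genes were still called, with log2 fold changes between 1.94 for MMP2 and 4.77 for MMP1.

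**Figure D2:**
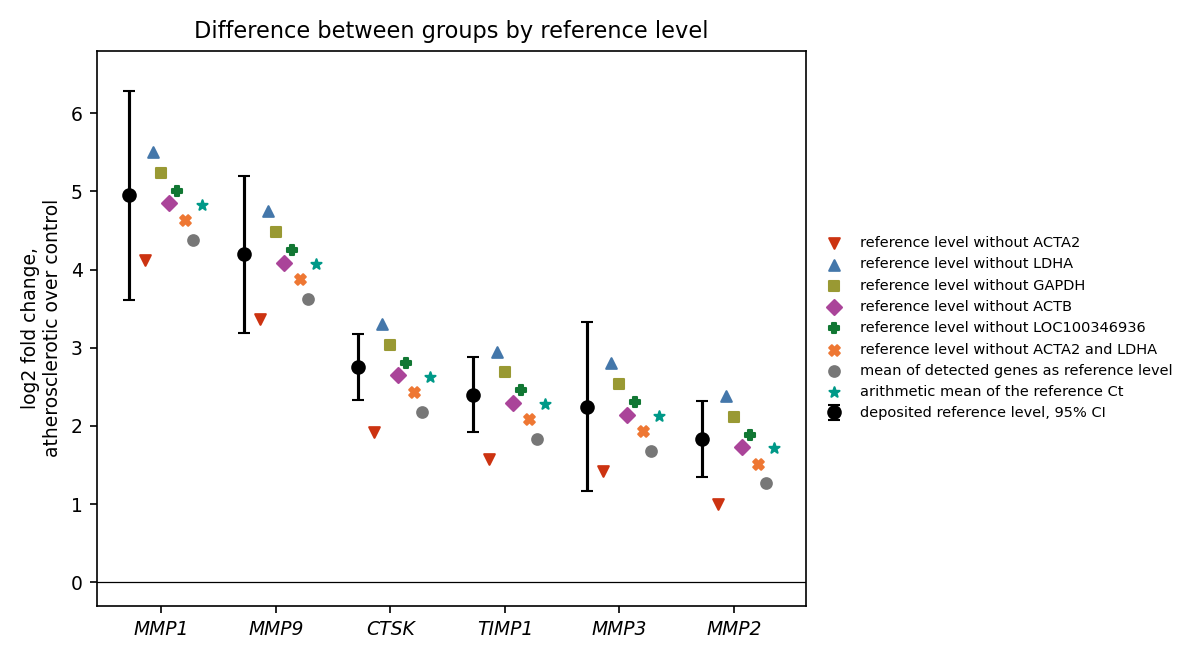
Log2 fold change of each gene, atherosclerotic over control, on the deposited reference level (black, with the 95% confidence interval from limma) and on 8 other reference levels. The values of MMP1, MMP3 and MMP9 contain limits. All points lie above 0, and leaving out ACTA2 gives the lowest point for each gene.

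The transcript of each protease was then compared with that of TIMP1 as their ratio within a rabbit, which does not depend on the reference genes. These are ratios of RNA and do not measure inhibition or enzyme activity. For CTSK, which TIMP1 does not inhibit, the ratio compares only the size of the 2 changes. The same ratio was formed for all pairs of genes on the array, and p-values were adjusted over the 3437 pairs with enough measured wells, of which 66.9% were called in limma and 66.1% in the exact permutation test. Of the other 83 genes, 63 changed relative to TIMP1 (75.9%), and only 8 did so upward (9.64%), the median change being -2.08 on the log2 scale. MMP1 and MMP9 were among those 8, ranking 3 and 5 by their change relative to TIMP1, while CTSK ranked 13, MMP3 18 and MMP2 22.

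MMP1 rose relative to TIMP1. Its ratio to TIMP1 ranged from 0.000345 in rabbit 8 over a median of 0.00512 to 0.0330 in rabbit 10 in the atherosclerotic group, while the control limits lay between 0.000501 and 0.00421. Rabbits 2, 4, 6, 10, 14, 18 and 20 exceeded every control limit, and rabbit 8 lay below all of them. The change was at least 5.86-fold (log2 change 2.55, SE 0.70, limma adjusted p = 0.0032, exact permutation adjusted p = 0.011). Leaving out single rabbits gave bounds between 4.68-fold, without rabbit 10, and 8.28-fold, without rabbit 8.

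MMP9 also rose relative to TIMP1. The ratio ranged from 0.000844 in rabbit 8 over a median of 0.00419 to 0.0130 in rabbit 12 among atherosclerotic rabbits, and 4 of 9 rabbits lay above every control value or limit, the highest being the limit of 0.00421 in control rabbit 3. The change was at least 3.47-fold (log2 change 1.79, SE 0.53, limma adjusted p = 0.0050, exact permutation adjusted p = 0.011). For MMP3 the control ratios to TIMP1 are all limits and its log2 change of -0.15 (limma adjusted p = 0.83) has no direction. Without the Ct ceiling it was 3.37 (limma adjusted p = 0.0043).

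MMP2 and CTSK were measured in every rabbit, and their calls relative to TIMP1 depended on the test. The MMP2 to TIMP1 ratio ranged from 0.369 over a median of 0.483 to 0.620 in the control group and from 0.162 in rabbit 8 over a median of 0.312 to 0.476 in rabbit 6 in the atherosclerotic group. Rabbits 2, 4, 8, 12, 18 and 20 lay below every control rabbit and the remaining 3 overlapped with the controls. The log2 change was -0.57 with a 95% confidence interval of -1.14 to 0.00098. It did not pass in limma (adjusted p = 0.0725) but did in the exact permutation test (adjusted p = 0.0045). The SE was 0.27 in limma, which shares the estimate of spread across pairs, and 0.172 from this ratio alone.

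The CTSK to TIMP1 ratio ranged from 2.58 over a median of 3.32 to 4.23 in control rabbits and from 3.14 over a median of 4.38 to 6.32 in atherosclerotic rabbits. Rabbits 6, 10, 14, 18 and 20 lay above every control rabbit and the other 4 within the control range. The log2 change of 0.35, with a 95% confidence interval of -0.20 to 0.90, was not called in limma (adjusted p = 0.24) and was called in the exact permutation test (adjusted p = 0.046). A change of CTSK relative to TIMP1 of up to 1.86-fold lies within the limma interval.

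**Figure D3:**
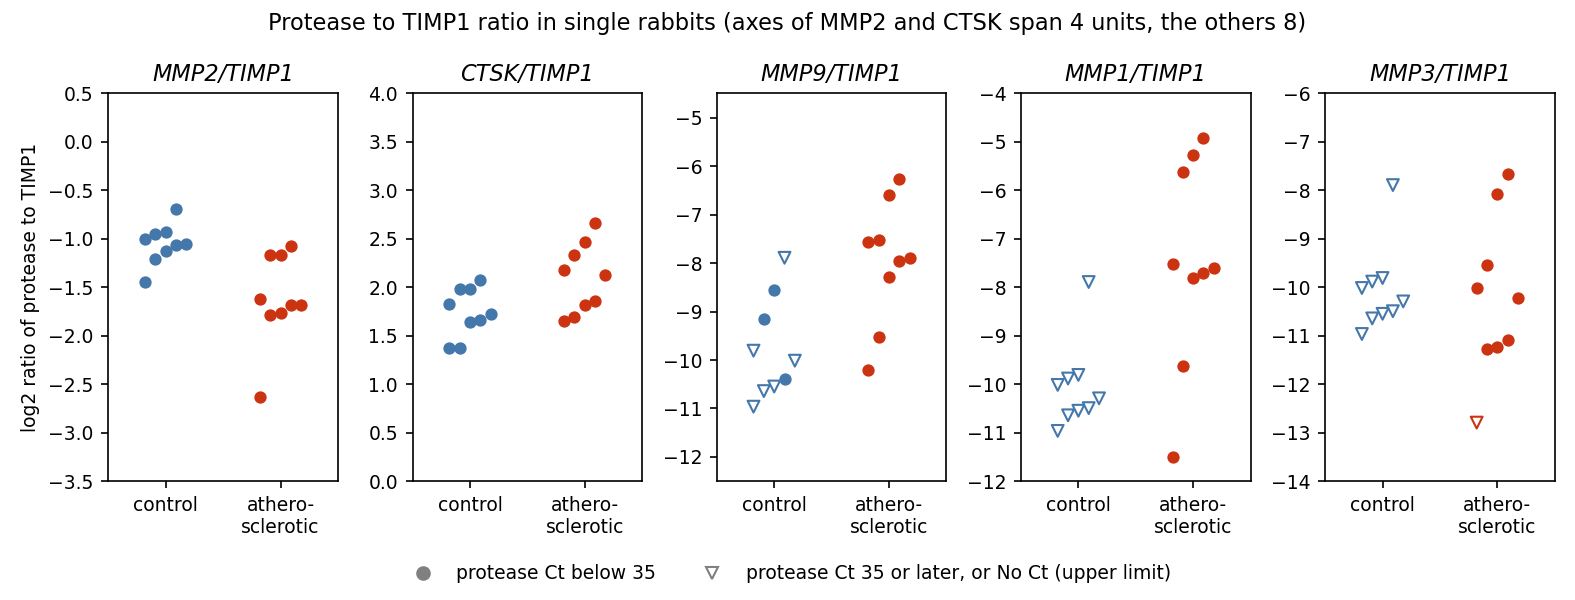
Log2 ratio of each protease to TIMP1 in single rabbits, 9 per group. Filled points have a protease Ct below 35 and open triangles are upper limits. The vertical axes start at different values and span 4 units for MMP2 and CTSK and 8 for the others. Most atherosclerotic rabbits lie below the controls for MMP2 and above the control limits for MMP1.

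Among the proteases, 7 of the 10 pairs had enough measured wells to be tested and 5 were called, against 66.9% of all pairs. CTSK rose more than MMP2. The ratio of MMP2 to CTSK ranged from 0.111 over a median of 0.131 to 0.199 in the control group and from 0.0458 over a median of 0.0860 to 0.0981 in the atherosclerotic group. The groups did not overlap, as in 25.1% of all pairs. CTSK thus gained 1.89-fold over MMP2 (log2 change of MMP2 to CTSK -0.92, SE 0.27, limma adjusted p = 0.0052, exact permutation p = 4.1e-05).

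MMP1 and MMP9 each rose more than MMP2 and more than CTSK. MMP1 gained at least 8.69-fold over MMP2 (limma adjusted p = 0.000164) and at least 4.60-fold over CTSK (limma adjusted p = 0.0040). For both ratios 7 of 9 atherosclerotic rabbits lay above every control limit, and for MMP1 to CTSK rabbit 8 lay below all of them. MMP9 gained at least 5.14-fold over MMP2 (limma adjusted p = 0.000346) and at least 2.72-fold over CTSK (limma adjusted p = 0.0197). Relative to MMP2 its ratio lay beyond every control value or limit in 6 of 9 atherosclerotic rabbits, and relative to CTSK in 4 of 9. The ratios of MMP3 to MMP2 and to CTSK rest on control limits and were not called (limma adjusted p = 0.51 and 0.40). Without the Ct ceiling both were called, with a log2 change of -3.94 for MMP2 to MMP3 and of 3.02 for MMP3 to CTSK, which was -0.50 with the ceiling (limma adjusted p = 0.00077 and 0.0051). The ratios among MMP1, MMP3 and MMP9 could not be tested, because both genes of a pair were at the ceiling in at least 5 control rabbits.

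Within the atherosclerotic group these latter ratios can be described. MMP1 lay above MMP3 in 9 of 9 rabbits, from 2.45-fold in rabbit 8, where MMP3 is a limit, over a median of 6.59-fold to 20.8-fold in rabbit 6. MMP1 to MMP9 varied far more, from 0.0967 in rabbit 12 to 14.9 in rabbit 6, with MMP1 the higher in 6 of 9. MMP3 lay below MMP9 in every atherosclerotic rabbit, with ratios between 0.0310 and 0.927.

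The genes also differed in how uniform they were among atherosclerotic rabbits. MMP1 spanned 56.1-fold between the lowest and highest rabbit and had the largest SD (1.94 on the log2 scale) of the 73 genes with a Ct below 35 in all 9. MMP9 spanned 11.7-fold and ranked 5 (SD 1.24). MMP2 (3.23-fold, SD 0.54, rank 56), TIMP1 (3.49-fold, SD 0.53, rank 58) and CTSK (2.23-fold, SD 0.38, rank 70) were among the less variable. With 1 well per rabbit, this spread includes the error of the PCR, and the wells of MMP1 (Ct 25.70 to 33.71) crossed later than those of CTSK (18.11 to 21.79). The part of late Ct in the spread was not tested.

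**Figure D4:**
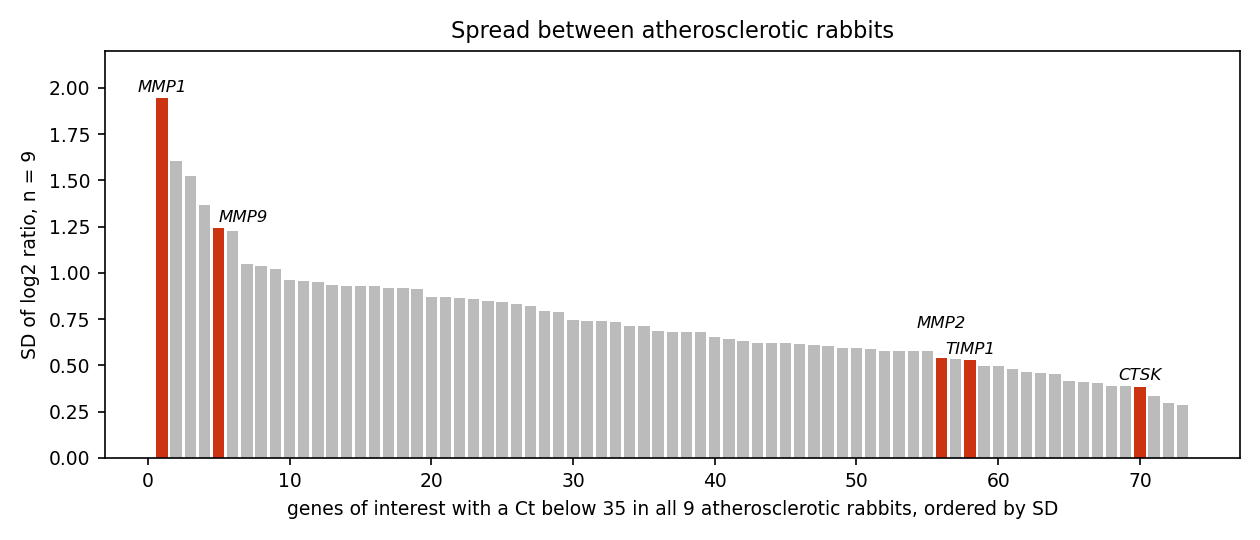
SD of the log2 ratio over the 9 atherosclerotic rabbits for the 73 genes of interest measured below Ct 35 in all of them, ordered from the most to the least variable. Red bars are MMP1, MMP9, MMP2, TIMP1 and CTSK; MMP3 is not shown because 1 of its wells is a limit. MMP1 has the tallest bar, and CTSK stands near the right end.

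The order of the atherosclerotic rabbits was similar for MMP1 and MMP3, although the relation did not pass adjustment. Rabbits 4, 6, 10 and 20 held the 4 highest values of both genes, and rabbits 8, 12 and 14 the 3 lowest of both. Spearman's rho was 0.917 over the 9 rabbits (exact permutation p = 0.0013), computed by rank because the MMP3 value of rabbit 8 is a limit. Pearson's r, taken without the Ct ceiling, was 0.892 (exact permutation p = 0.00084). Without rabbits 8 and 12, the farthest from the median of MMP1, rho was 0.821 over 7 rabbits (exact permutation p = 0.034). The adjusted p over all 2775 gene pairs of the rank comparison was 0.21, and none of these pairs was called. All genes of a rabbit share its reference level, and with the mean of the detected genes as reference level rho remained at 0.917. The RefSeq gene table of assembly mOryCun1.1 lists MMP1 and MMP3 as direct neighbours, with 0 protein-coding genes between them, in the order MMP27, MMP8, MMP10, MMP1, MMP3, MMP12 and MMP13.

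MMP9 followed another order of rabbits. Rabbit 12, which had the second lowest MMP1, had the second highest MMP9, and rabbit 6, with the second highest MMP1, had the second lowest MMP9. For MMP1 and MMP9 Pearson's r was 0.054 and Spearman's rho -0.033 (exact permutation p = 0.89 and 0.95), and r was -0.44 without the 2 rabbits farthest from the median of MMP1. Rabbit 8 was the lowest for MMP1, MMP3 and MMP9, yet had the second highest TIMP1.

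**Figure D5:**
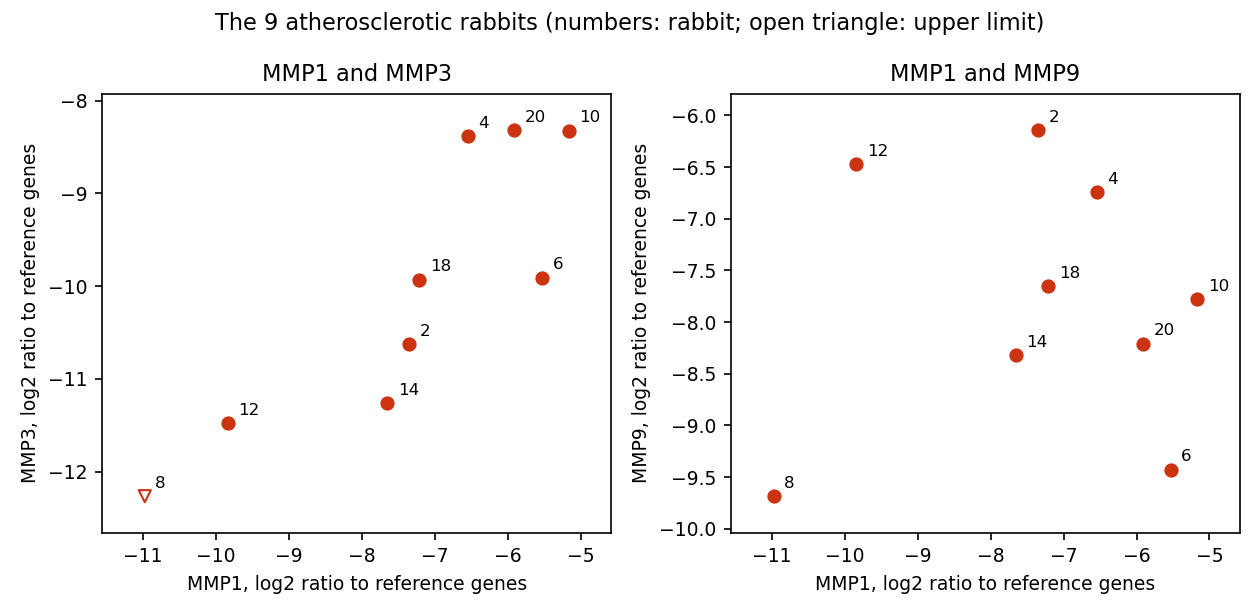
Log2 ratios of MMP3 (left) and MMP9 (right) against MMP1 in the 9 atherosclerotic rabbits, numbered by rabbit. The open triangle is an upper limit of MMP3. Points rise from lower left to upper right for MMP3 and are scattered for MMP9, where rabbits 12 and 6 lie at opposite corners.

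CTSK, TIMP1 and MMP2 had positive correlations that did not pass adjustment. For TIMP1 and CTSK Pearson's r was 0.738 and Spearman's rho 0.583 (exact permutation p = 0.023 and 0.11), and for MMP2 and CTSK r was 0.734 and rho 0.633 (exact permutation p = 0.025 and 0.076). For MMP2 and TIMP1 r was 0.611 and rho 0.433 (exact permutation p = 0.079 and 0.25). Without the 2 rabbits farthest from the median, r was 0.330 for TIMP1 and CTSK, 0.385 for MMP2 and CTSK and -0.17 for MMP2 and TIMP1 over 7 rabbits. With the mean of the detected genes as reference level, r over the 9 rabbits was 0.786, 0.784 and 0.665 in the same order. On the level without ACTA2 it was 0.767, 0.640 and 0.577 (exact permutation p = 0.016, 0.058 and 0.10). None of the 3 pairs passed adjustment on either level. On the deposited level the Pearson values had adjusted p of 0.28, 0.29 and 0.40 in the same order over the 2628 pairs of 73 genes. Of these pairs 0 were called and 373 (14.2%) had an exact permutation p under 0.05 before adjustment. Of the 10 pairs among MMP1, MMP2, MMP9, TIMP1 and CTSK, 2 had such a p. In the other 8 pairs r lay between -0.20 and 0.61.

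The genes whose order of rabbits was most like that of a protease were found by the highest Pearson r over the 9 atherosclerotic rabbits, by rank for MMP3. Among genes with a Ct below 35 in all 9 rabbits, MMP1 was nearest to PLAU, the urokinase plasminogen activator (r = 0.629, rho = 0.833), and to COL1A2 (r = 0.530, rho = 0.333). MMP3 was not among those genes, and its rho with MMP1 was higher, at 0.917. MMP3 was nearest to MMP1, followed by PLAU (rho = 0.700). MMP9 was nearest to the neutrophil chemokine CXCL8 (r = 0.687, rho = 0.600) and to IL6 (r = 0.573, rho = 0.317). MMP2 was nearest to the cytokine MIF (r = 0.773, rho = 0.750). CTSK was nearest to TIMP1 (r = 0.738, rho = 0.583) and MMP2 (r = 0.734, rho = 0.633). No pair of genes passed the adjustment, so these are a description of 9 rabbits.

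Of 17 other genes of extracellular proteolysis listed, 5 are on the array, of which 1 rose, 1 fell and 3 did not pass, against 38.1% higher and 22.6% lower over all genes. PLAU rose 10.3-fold (log2 fold change 3.37, SE 0.25, limma adjusted p = 7.39e-10), from ratios of 0.0213 to 0.0475 in control rabbits to 0.196 to 0.556 in atherosclerotic rabbits, with no overlap. PLG, plasminogen, the proenzyme that PLAU activates, fell by 2.87 on the log2 scale (SE 0.43, limma adjusted p = 9.85e-06), where 7 of 9 atherosclerotic wells were limits, so it was at least 7.34-fold lower. The urokinase receptor PLAUR (log2 fold change 2.32, limma adjusted p = 0.053) and the tissue plasminogen activator PLAT (0.29, adjusted p = 0.57 in limma) were among those that did not pass. PLAUR was called higher on 3 of the 8 other reference levels, among them the one without LDHA (2.87, limma adjusted p = 0.018).

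Of 17 matrix proteins and collagen modifiers listed, which include the substrates of these enzymes, 10 are on the array. COL5A3, a chain of type V collagen (log2 fold change 3.07, limma adjusted p = 5.01e-05), VTN, the adhesive protein vitronectin (2.01, limma adjusted p = 8.38e-05), and COL1A2, a chain of type I collagen (1.61, limma adjusted p = 6.22e-05), rose. The collagen lysyl hydroxylase PLOD2 fell by 1.04 (limma adjusted p = 0.000644). For COL5A3 and VTN 2 control wells each were limits, and for FGA 7 control and 9 atherosclerotic wells. The other 6 did not pass, and the median of the 10 was -0.05. Over all genes 38.1% rose and 22.6% fell. Without ACTA2 in the reference level COL1A2 was not called (0.78, limma adjusted p = 0.056) and the list held 2 higher and 6 lower genes. The 6 lower include FGA (-0.87, limma adjusted p = 0.046), most of whose wells are limits that follow the reference level alone. Without LDHA PLOD2 was not called (-0.48, limma adjusted p = 0.058) and the list held 4 higher and 0 lower.

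All 9 listed signals that are known to induce metalloproteinase transcription are on the array, and 4 rose while 2 fell, against 38.1% higher and 22.6% lower over all genes. TLR4 (log2 fold change 5.30), the growth factor PDGFB (4.63) and TNF (2.34, a lower bound with all 9 control wells at the ceiling) rose, as did CD40LG (1.77). FGF2 fell by 1.98 and PDGFA by 0.88. CD40LG was not called without ACTA2 in the reference level (0.95, limma adjusted p = 0.12), nor PDGFA without LDHA (-0.33, limma adjusted p = 0.14). Without LDHA IL1A was called higher (0.87, limma adjusted p = 0.024). However, 9 control and 7 atherosclerotic wells of IL1A were limits, whose ratio is set by the reference level alone. On the deposited level IL1A, IL1B and EGF did not pass, with IL1B at 1.24 (SE 0.90, limma adjusted p = 0.23). For EGF 8 control and 9 atherosclerotic wells were limits, so whether EGF or IL1A changed cannot be told. Of 5 signals known to restrain metalloproteinases or to raise TIMP1, IL10 (4.16) and TGFB1 (0.83) rose and IL4, IFNG and IL6 did not pass. IL10 was called higher on all 8 other reference levels, whereas the calls of TGFB1, IFNG, IL4 and IL6 depended on the level. Without ACTA2 TGFB1 was at 0.00245 (limma adjusted p = 0.99) and IFNG was called lower (-0.93, limma adjusted p = 0.017), and without LDHA IL4 and IL6 were called higher (limma adjusted p = 0.039 and 0.019), which made 4 of the 5 higher. For PDGFB and IL10 2 control wells each were limits. For IL4 4 control and 5 atherosclerotic wells were limits, whose ratios follow the reference level alone. The 6 called inducing signals had limma adjusted p of at most 0.0063, and IL10 and TGFB1 of at most 0.0023.

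Some markers of cell types also differed between the groups. Of 6 smooth muscle markers listed, LOC100009332 (transgelin) and ACTC1 are among the genes of interest and both fell, while ACTA2 is a reference gene. Their summed ratio, nearly all of it transgelin, was 12.3 to 19.4 in control rabbits and 0.776 to 4.53 in atherosclerotic rabbits. ACTC1 fell by 1.03 on the log2 scale (limma adjusted p = 0.029), with 7 atherosclerotic wells and 1 control well at the ceiling, and was not called without LDHA in the reference level (-0.47, limma adjusted p = 0.28). Of 5 macrophage markers listed the array holds TLR4, whose ratio went from 0.00117 to 0.0131 to a range of 0.115 to 0.265. The 3 measured T cell markers of 4 listed went different ways. CD40LG rose by 1.77 on the log2 scale, as given above, IL2 fell by 2.05 (limma adjusted p = 2.14e-05, no overlap) and IFNG, with -0.10 (limma adjusted p = 0.74), did not pass. Their summed ratio, most of which is IFNG, was 0.0796 to 0.147 in the control group and 0.0647 to 0.274 in the atherosclerotic group. None of the 5 listed endothelial markers is among the genes measured. The part of these shifts in cell type markers in the changes of the proteases and TIMP1 was not tested.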

How the data were processed

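Ct values of 89 assays in 18 rabbits were used. The authors extracted total RNA with TRIzol, reverse-transcribed it with the RT2 First Strand Kit, and read the plates on an Mx3000P system, with GeneGlobe for the analysis. The deposited ratio is 2 to the power of minus deltaCt to the 5 reference genes, and rebuilding it from the deposited Ct with the geometric mean of the reference Ct and a ceiling of 35 matched it within 6.3e-05 log2 units at ratios over 0.01. The deposited file of fold changes holds the authors' own comparison and was not used. PCR has no read depth; precision is set by 1 well per gene and rabbit.

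Groups and rabbit numbers came from the labels. The log2 ratio was compared without covariates in limma 3.58.1 (lmFit, eBayes; R 4.3.3), with Benjamini-Hochberg adjustment over 84 genes and a threshold of 0.05, and by two-sided exact permutation tests (48620 assignments). Ratios of 2 genes were fitted in the same way for all 3437 of 3486 pairs in which fewer than 5 rabbits of a group had both genes at the ceiling. Correlations used all 362880 pairings of 9 rabbits. Other software was matplotlib 3.10.9, pandas 2.3.3, scipy 1.17.1, numpy 2.4.6 and Python 3.11.15. The limma fits were tested on simulated data.

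The 6 genes, the lists, the tests and the alternatives were chosen with earlier results of these data known. Genes named beyond the 6 are the 2 most alike to each by correlation, up to 3 called genes per list and direction with the largest change, and, chosen after their values were seen, the remaining members of short lists and FGA. Values of 1 gene that this rule names are not reported here. Alternatives were 8 reference levels, no Ct ceiling (undetermined wells at 40), only genes detected in 5 rabbits of a group, array weights, exact tests, and leaving out each rabbit. The rank correlations with MMP3 and the correlation without a ceiling were added after seeing the data. All 6 genes matched the RefSeq table of mOryCun1.1 by accession. It was used for names and gene order only, since no genome build is given in the sources used here, and no sequences are shown.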

Additional observations from a re-analysis of the deposited data

Results flagged for a closer look

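The log2 ratio of MMP2 to TIMP1 in atherosclerotic rabbit 8 was -2.63, apart from the other 8 atherosclerotic rabbits, which lay between -1.79 and -1.07. In this rabbit the MMP2 ratio to the reference genes was 0.233, the second lowest of the group, and that of TIMP1 was 1.44, the second highest. Of 24 sets of 9 values examined for a rabbit standing apart, this was the only one, where chance would give 1.2. Sets made mostly of limits were not examined. Without this rabbit the change of the MMP2 to TIMP1 ratio was -0.44 (limma adjusted p = 0.15), against -0.57 with it.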

How the results depend on the processing

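All 6 genes remained called higher, by limma or by the exact test, under the 12 other alternatives and when each of the 18 rabbits was left out. The filter on genes detected in 5 rabbits of a group left the ratios of all 6 unchanged. MMP1, MMP3 and MMP9 passed it only through the atherosclerotic group, so it is no separate support for them. Leaving out a rabbit gave log2 fold changes of 4.68 to 5.40 for MMP1, 1.73 to 1.94 for MMP2, 2.03 to 2.52 for MMP3, 3.98 to 4.43 for MMP9, 2.28 to 2.50 for TIMP1 and 2.67 to 2.82 for CTSK, and 48 to 54 called genes in all. Without the Ct ceiling the log2 fold change was 8.88 for MMP1 and 5.77 for MMP3, which rest on control wells later than Ct 35 or set to 40. The same setting gave a change of 3.37 for MMP3 to TIMP1 (adjusted p = 0.0043 in limma) and 3.02 for MMP3 to CTSK (0.0051), where the ceiling gave -0.15 and -0.50, and -3.94 for MMP2 to MMP3 (0.00077). MMP3 to TIMP1 also changed sign without control rabbit 3 or atherosclerotic rabbit 8. Exact permutation tests called MMP2 to TIMP1 (-0.57, adjusted p = 0.0045) and CTSK to TIMP1 (0.35, adjusted p = 0.046), which limma did not. Leaving out single rabbits gave -0.64 to -0.44 for MMP2 to TIMP1, with limma adjusted p of 0.054 to 0.15, and 0.28 to 0.40 for CTSK to TIMP1. The ratios of MMP1 and MMP9 to TIMP1 and the 5 called protease pairs were called under all settings run. For pairs with MMP1 or MMP9 the detection filter is again no separate support. No paired analysis was possible because the groups share no rabbit numbers. Wells at late Ct limit what can be said of MMP1, MMP3 and MMP9 in control aortas.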
